A study of Bos taurus with 10 samples.

Results

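The genes described here carry out the synthesis of prostaglandin E2, its perception and that of related lipids at the cell surface, and their perception in the nucleus. They were chosen by name as 10 gene symbols, and 8 of the 10 had a row among the 20112 genes of the deposited table. These were the cyclooxygenases *PTGS1* and *PTGS2*, the prostaglandin E synthases *PTGES*, *PTGES2* and *PTGES3*, the receptors *PTGER4* and *PTGFR*, and the nuclear receptor *PPARD*. The symbols *PTGER2* and *PPARG* had no row, and both genes were not analysed here. All 8 genes passed the filter of a mean normalized read count of at least 1.

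Each sample was a single bovine early blastocyst produced in vitro. The 5 WT embryos were injected as zygotes with mRNA of the cytosine base editor BE3 and no sgRNA, and the 5 *SOX2* KO embryos received BE3 mRNA together with a mixture of sgRNAs against *SOX2*, so that all 10 embryos carried the editor mRNA. The labels give day 7.0 after fertilization as the age, and the study's methods give a time some hours later. Editing acts in each embryo separately, the embryos are therefore not a clonal line, and the oocytes came from abattoir ovaries with no donor given per embryo. The labels do not say which embryos shared a day of fertilization, so the p-values measure the spread between these embryos only.

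Prostaglandin synthesis starts when a phospholipase A2 frees arachidonic acid from membrane lipids. Cyclooxygenases convert it to prostaglandin H2, and terminal synthases turn this intermediate into prostaglandin E2, F2α, D2, prostacyclin or thromboxane. The products leave the cell and bind G protein-coupled receptors, and some lipids of this kind bind the PPAR nuclear receptors, which act as dimers with RXR proteins. In ruminants the conceptus and the endometrium both make prostaglandins before implantation, and the trophectoderm is the main embryonic source.

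The WT libraries held 2223670 to 5134855 recovered reads, and the *SOX2* KO libraries 2578284 to 4337342. The number of genes with at least 1 read was 15919 to 18092 in the WT group, against 17987 to 19813 in the *SOX2* KO group (exact permutation test of the means, two-sided, p = 0.0159). The 18S rRNA gene *RN18S1* accounted for 26.4% to 37.0% of reads among WT embryos, against 32.5% to 45.0% among *SOX2* KO embryos (exact permutation p = 0.0635). *SOX2* itself ranged between 56.5 and 93.4 normalized read counts among WT and between 26.4 and 82.1 among *SOX2* KO embryos, with overlapping groups (log2 fold change -0.55, limma adjusted p = 0.167). Read counts do not show the edited bases, so this gene does not check the genotype. The trophectoderm markers *KRT8*, *KRT18* and *GATA3* were present in every embryo, and the summed normalized read count of 10 trophectoderm markers was 24453 to 35816 among WT and 33128 to 46749 among *SOX2* KO embryos. The sum over 5 epiblast markers was 1278 to 1714 among WT and 646 to 922 among *SOX2* KO embryos, and that over 5 primitive endoderm markers was 8946 to 16138 and 4244 to 7110. Such sums are weighted toward the most abundant markers. Of the 10 trophectoderm markers, limma called 1 higher and 0 lower, beside 8.93% and 1.16% of all genes tested. Their median log2 fold change was 0.55, against 0.25 for all genes tested. By limma, 3 of the 5 epiblast and 2 of the 5 primitive endoderm markers were called lower, beside 1.16% of all genes tested. The median log2 fold change was -1.53 over the epiblast markers and only -0.24 over the primitive endoderm markers. A whole blastocyst mixes these lineages, and fewer cells of a type cannot be told apart from less RNA per cell. The part of these lineage differences in the results below was not tested.

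Of the 8 genes, *PTGES* and *PTGER4* were called higher in *SOX2* KO embryos. A call required a limma adjusted p of at most 0.05 over all genes tested and a fold change of at least 2. *PTGES2* and *PPARD* passed on the adjusted p and stayed just under the threshold on the fold change. The cyclooxygenases, *PTGES3* and *PTGFR* did not pass. Over the 20056 genes tested, 8.93% were called higher and 1.16% lower, so the 2 of 8 genes called higher stand beside a background of that size, and the number is too small to set the list apart. None of the 8 genes was called lower by limma, DESeq2 or edgeR (which tested 6 of them). By limma, 4 of the 8 had an unadjusted p under 0.05 in the higher direction and 0 in the lower, beside 24% and 8.37% of all genes tested. DESeq2 called 3 of the 8 higher, beside 9.13% of all genes higher and 1.18% lower, and edgeR called 2 of 6 higher, beside 3.95% higher and 1.49% lower. The log2 fold change was above 0 for 7 of the 8 genes and for 62.9% of all genes tested. Its median was 0.75 over the 8 genes and 0.25 over all genes tested.

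**Figure D1:**
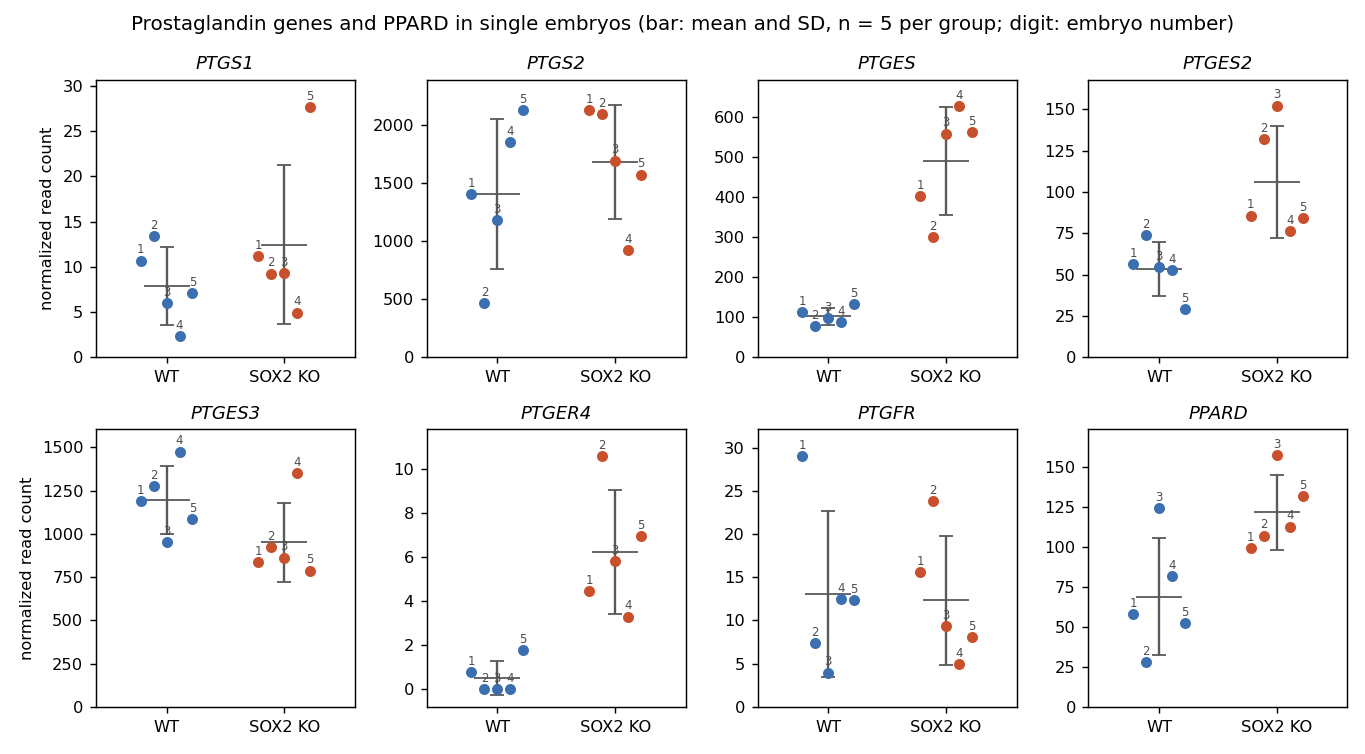
Normalized read counts (vertical axes, linear) of the 8 genes in each of 5 WT (blue) and 5 *SOX2* KO (red) embryos, with the mean and SD of each group as grey bars. The groups are apart for *PTGES*, *PTGES2* and *PTGER4* and overlap for the other 5 genes. Every *SOX2* KO embryo was above every WT embryo for 6.41% of all genes tested.

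The cyclooxygenases carry out the committed step of the pathway, *PTGS1* as the mostly constitutive form and *PTGS2* as the inducible form. In the WT embryos nc1 to nc5, the normalized read count of *PTGS2* was 1402, 467, 1177, 1852 and 2125. Its counts in the *SOX2* KO embryos ko1 to ko5 were 2124, 2092, 1692, 920 and 1572. The lowest WT embryo was nc2, also the smallest library. The lowest *SOX2* KO embryo was ko4, which had the largest library of its group (4337342 reads). The highest embryos of both groups were at the same level. Group means were 1405 ± 642 for WT (SD, n = 5) and 1680 ± 489 for *SOX2* KO embryos (SD, n = 5), which gave a log2 fold change of 0.37 ± 0.31 (SE, with a limma adjusted p of 0.418). Without nc2 the log2 fold change was 0.01 (limma adjusted p = 0.978). The spread of *PTGS2* within WT was 4.55-fold from the lowest to the highest embryo, against 1.69-fold for *PTGES*.

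*PTGS1* rested on few reads, 3 to 14 per WT embryo and 6 to 24 per *SOX2* KO embryo. Its normalized read counts were 10.7, 13.3, 5.97, 2.33 and 7.08 in WT and 11.1, 9.24, 9.30, 4.93 and 27.7 in *SOX2* KO. All *SOX2* KO embryos other than ko5 lay within the WT range. Its log2 fold change was 0.56 ± 0.51 (SE, with a limma adjusted p of 0.465), and the standard error was nearly as large as the difference. A microRNA gene overlaps *PTGS1* in the RefSeq table of the assembly ARS-UCD2.0, and none of the other 7 genes overlaps another gene there.

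The prostaglandin E synthases convert prostaglandin H2 to prostaglandin E2. *PTGES* encodes the microsomal, inducible enzyme that is known to work together with the inducible cyclooxygenase. Its normalized read counts were 113, 78.6, 97.4, 88.6 and 133 across the WT group. Across the *SOX2* KO group they were 403, 301, 559, 628 and 564. The lowest *SOX2* KO embryo, ko2, was thus above the highest WT embryo, nc5, by more than the whole WT range. Group means were 102 ± 21.3 for WT (SD, n = 5) and 491 ± 135 for *SOX2* KO embryos (SD, n = 5). On the log2 scale this was a rise of 2.23 ± 0.20 (SE, with a limma adjusted p of 1.27e-06), that is 4.69-fold. Behind these values stand 638 WT and 2324 *SOX2* KO reads. Over all genes tested, 6.41% had every *SOX2* KO embryo above every WT embryo.

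*PTGES* kept its call whichever embryo was left out, with log2 fold changes from 2.13 to 2.39. It was 2.26 with DESeq2 and 2.28 with edgeR on the recovered reads. When limma also adjusted for the *RN18S1* share it was 2.17 (limma adjusted p = 0.000249), and with the number of detected genes as a covariate it was 1.91 (limma adjusted p = 0.00365). In these 2 fits, 137 and 58 genes of the whole table were called higher.

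*PTGES2* encodes a membrane-associated synthase that is mostly constitutive. It had normalized read counts of 56.5, 74.2, 54.7, 52.8 and 28.9 in WT and of 85.7, 132, 152, 76.4 and 84.2 in *SOX2* KO embryos. The groups did not overlap, but the lowest *SOX2* KO embryo, ko4, was only just above the highest WT embryo, nc2. Group means were 53.4 ± 16.1 for WT (SD, n = 5) and 106 ± 33.9 for *SOX2* KO embryos (SD, n = 5). Their log2 fold change was 0.98 ± 0.25 (SE, with a limma adjusted p of 0.0172), which misses the 2-fold threshold by little. It was 1.01 with DESeq2 and 1.03 with edgeR, and both tools called the gene (adjusted p = 0.00642 and 0.0203). With the share of *RN18S1* as a covariate the limma log2 fold change of *PTGES2* was 0.85 (limma adjusted p = 0.229), and with the number of detected genes it was 1.41 (limma adjusted p = 0.121). An adjusted limma p of at most 0.05 in the higher direction was found for 10.4% of all genes tested.

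*PTGES3* encodes the cytosolic synthase, which is better known as a co-chaperone of HSP90. It had 1191, 1274, 951, 1475 and 1084 in WT and 836, 923, 863, 1350 and 788 in *SOX2* KO embryos. Here 4 of the 5 *SOX2* KO embryos lay below every WT embryo, and ko4 lay within the WT range. Group means were 1195 ± 198 for WT (SD, n = 5) and 952 ± 228 for *SOX2* KO embryos (SD, n = 5), which gave a log2 fold change of -0.34 ± 0.17 (SE, with a limma adjusted p of 0.171). With each of the 10 embryos left out in turn, the limma adjusted p was at most 0.05 in 1 fit, the one without ko4. In that fit the log2 fold change of *PTGES3* was -0.47 (limma adjusted p = 0.0315), still under the threshold on the fold change.

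**Figure D2:**
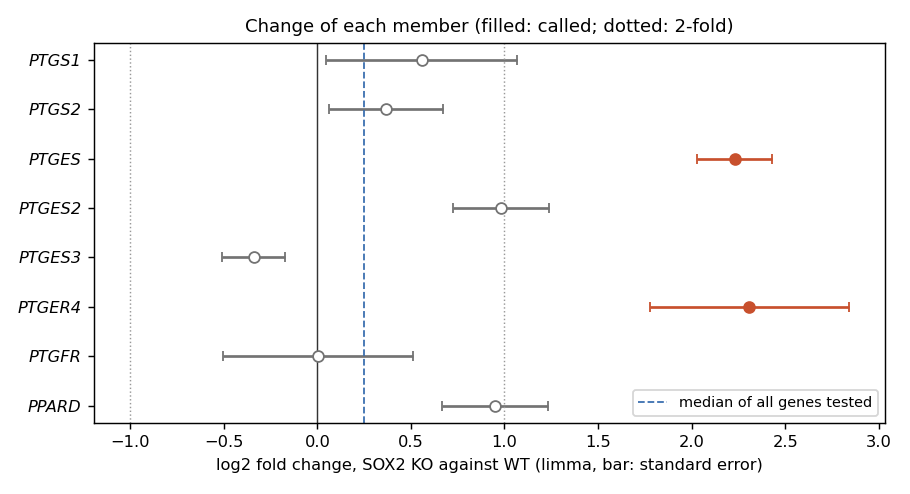
Log2 fold change of each gene between *SOX2* KO and WT embryos (horizontal axis, limma) with its standard error, called genes filled. The 2 called genes lie at 2.23 and 2.31, while *PTGES2* and *PPARD* lie just under the dotted line at a 2-fold change, and the dashed line marks the median of all genes tested at 0.25.

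The balance of *PTGES* to the other genes was also described within each embryo. A ratio of 2 genes in the same embryo is not altered by any scaling between embryos. The 3 ratios were chosen after the values had been seen and are given without a test. The log2 ratio of *PTGES* to *PTGES3* was -3.40, -4.02, -3.29, -4.06 and -3.03 in WT and -1.05, -1.62, -0.63, -1.10 and -0.48 in *SOX2* KO embryos. The groups did not overlap, and the difference of 2.58 on the log2 scale corresponds to 5.99-fold.

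The log2 ratio of *PTGES* to *PTGS2* averaged -3.64 ± 0.68 (SD, n = 5) over WT embryos and -1.76 ± 0.87 (SD, n = 5) over *SOX2* KO embryos. Here the groups overlapped, because the WT embryo nc2 with its low *PTGS2* stood at -2.57 and the *SOX2* KO embryo ko2 at -2.80. The log2 ratio of *PTGES* to *PTGES2* was 0.97 ± 0.77 (SD, n = 5) and 2.22 ± 0.73 (SD, n = 5), also with overlap. The embryo ko4 had the highest value of *PTGES* in its group together with the lowest of *PTGS2* and *PTGES2*.

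**Figure D3:**
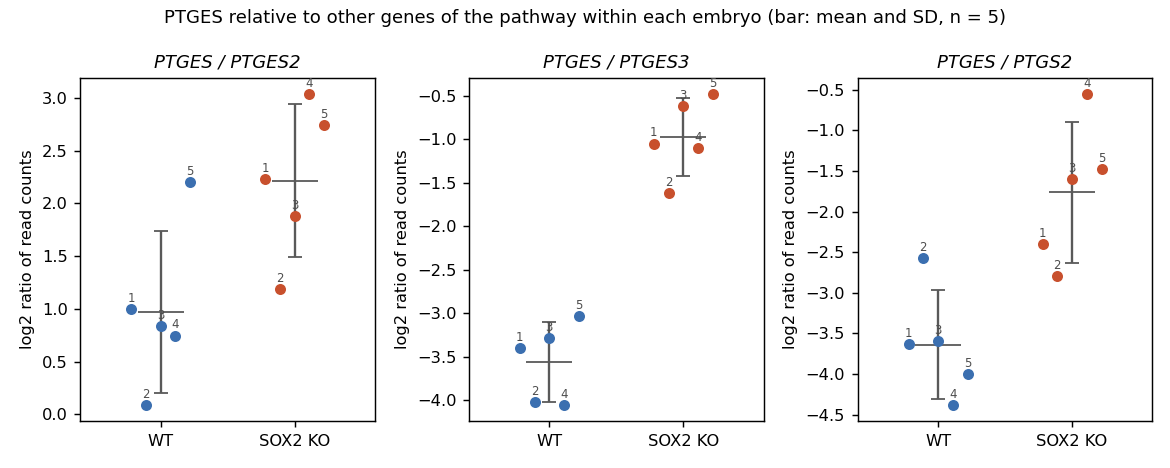
Log2 ratio of the reads of *PTGES* to those of *PTGES2*, *PTGES3* and *PTGS2* (vertical axes) within each of 5 WT (blue) and 5 *SOX2* KO (red) embryos, with the mean and SD as grey bars. The groups are apart for the ratio to *PTGES3* and overlap for the other 2 ratios.

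Among the receptors, *PTGER4* encodes the EP4 receptor, which answers prostaglandin E2 by raising cyclic AMP. It was near the floor of detection, with 1, 0, 0, 0 and 3 reads among WT and 4, 8, 5, 4 and 6 reads among *SOX2* KO embryos. As normalized read counts these were 0.763, 0, 0, 0 and 1.77 against 4.45, 10.6, 5.81, 3.29 and 6.92. The groups did not overlap, and the lowest *SOX2* KO embryo had 1 read more than the highest WT embryo. The reads add up to 4 in WT and 27 in *SOX2* KO, a ratio of 8.76 after correction for the size factors (95% exact interval 3.05 to 34.5, counting error only). The limma log2 fold change was 2.31 ± 0.53 (SE, with a limma adjusted p of 0.00925), a value that depends on the pseudocount. It was 4.40 with a pseudocount of 0.1 and 1.0 with a pseudocount of 5. With quantile normalization the limma adjusted p of *PTGER4* was 0.108 and the call was lost. With the *RN18S1* share as a covariate the log2 fold change of *PTGER4* was 2.42 (limma adjusted p = 0.0939), and with the number of detected genes it was 2.09 (limma adjusted p = 0.321), so the call was lost at a fold change close to the reported one. Among genes with a mean under 10, to which *PTGER4* belongs, 14.1% were called higher, against 4.97% where the mean was 10 or more.

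*PTGFR* encodes the receptor of prostaglandin F2α. It had normalized read counts of 29.0, 7.42, 3.98, 12.4 and 12.4 in WT and of 15.6, 23.8, 9.30, 4.93 and 8.07 in *SOX2* KO embryos. The groups covered nearly the same range, from 4 to 38 reads per embryo in WT and 6 to 18 in *SOX2* KO. The log2 fold change was 0.00 ± 0.51 (SE, with a limma adjusted p of 0.998), so that changes of less than 2-fold in either direction could not be resolved.

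*PPARD* encodes the PPAR that is present in most tissues and regulates fatty acid use. It had 58.0, 28.2, 124, 81.6 and 52.5 in WT and 99.1, 107, 157, 113 and 131 in *SOX2* KO embryos. Of the WT embryos, 4 lay below every *SOX2* KO embryo, and nc3 lay among them. Group means were 68.9 ± 36.3 for WT (SD, n = 5) and 121 ± 23.2 for *SOX2* KO embryos (SD, n = 5). Their log2 fold change was 0.95 ± 0.28 (SE, with a limma adjusted p of 0.0328). The limma adjusted p stayed at or under 0.05 for 4 of the 10 embryos left out in turn, and the call with both thresholds was reached without nc3 (1.2) and without nc4 (1.05). DESeq2 and edgeR gave adjusted p of 0.0503 and 0.0812. With the share of *RN18S1* as a covariate the limma log2 fold change was 0.43 (limma adjusted p = 0.565), and with the number of detected genes it was 0.35 (limma adjusted p = 0.828).

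The genes whose pattern over the 10 embryos was most like that of *PTGS2*, among 11333 other genes whose mean was 10 or more, were *CAPN6*, *TMEM41B* and *TSKS*, with Pearson correlations of log2 values of 0.94, 0.94 and 0.94. *CAPN6* had its lowest values of either group in nc2 (1.48) and ko4 (3.29), as *PTGS2* did. These correlations are a description over 10 embryos and share the depth of each library.

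The rest of the pathway was taken from lists of gene symbols by role, with 74 genes tested of 84 symbols listed. Of these, 9 were called higher and 2 lower, beside 8.93% higher and 1.16% lower over all genes tested. Their median log2 fold change was 0.82 against 0.25 for all genes, and their median mean value was 10.6 against 17.0 for all genes tested. The counts of each list are read against these shares, and against the 14.1% called higher among genes with a mean under 10, and are too small to set a list apart. Upstream of the cyclooxygenases, 3 of 12 phospholipases A2 were called higher and 0 lower, in a list whose median mean value was 5.0. *PLA2G4A* encodes the cytosolic enzyme that is selective for arachidonic acid, and in the RefSeq table it is the neighbour of *PTGS2*. *PLA2G4A* had 22.9, 22.2, 28.8, 49.0 and 120 in WT and 157, 149, 102, 73.1 and 146 in *SOX2* KO embryos. The WT embryo nc5 lay among the *SOX2* KO embryos, and ko4 was the lowest of its group. The log2 fold change of *PLA2G4A* was 1.61 ± 0.36 (SE, with a limma adjusted p of 0.00734), and the call held with each embryo left out. It was lost with the *RN18S1* share as a covariate (1.80, limma adjusted p = 0.0620) and with the number of detected genes (1.03, limma adjusted p = 0.523).

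*PLA2G15*, a lysosomal phospholipase, rose from 200 ± 38.1 (SD, n = 5) to 438 ± 59.0 (SD, n = 5) without overlap (log2 fold change 1.14, limma adjusted p = 0.000213). The secreted *PLA2G3* had 3 reads in all WT embryos and 28 in the *SOX2* KO embryos, with 0 reads in ko4. Its call (limma adjusted p = 0.0361) was kept 3 times when each of the 10 embryos was left out in turn.

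**Figure D4:**
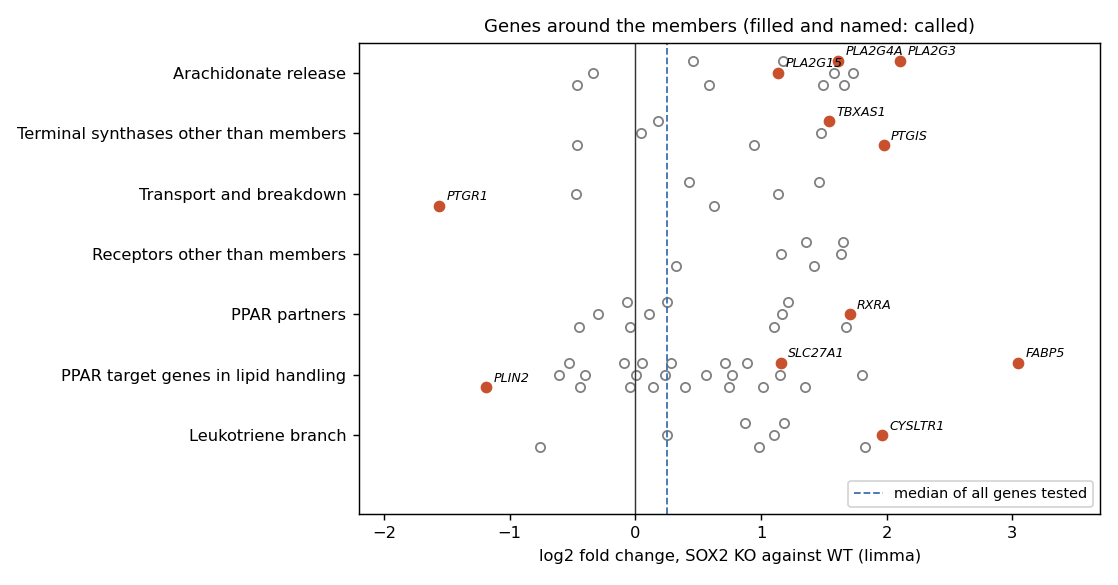
Log2 fold change between *SOX2* KO and WT embryos (horizontal axis, limma) of the 74 tested genes of 7 lists around the 8 genes, each circle 1 gene, with called genes filled and named. Of these, 9 were called higher, 2 (*PTGR1* and *PLIN2*) lower, and the dashed line marks the median of all genes tested at 0.25.

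Of 7 other terminal synthases, 2 were called higher and 0 lower, beside 8.93% and 1.16% of all genes. *PTGIS*, the prostacyclin synthase, had 8.39, 0, 13.9, 17.1 and 4.72 in WT and 30.1, 19.8, 40.7, 12.3 and 36.9 in *SOX2* KO embryos. All *SOX2* KO embryos other than ko4 were above the WT range. The log2 fold change of *PTGIS* was 1.97 ± 0.61 (SE, with a limma adjusted p of 0.0383), and the call was kept 4 times when each of the 10 embryos was left out in turn. *TBXAS1*, the thromboxane synthase, had 1 WT read and 12 *SOX2* KO reads in all (limma adjusted p = 0.0444, DESeq2 adjusted p = 0.0932). The call of *TBXAS1* was kept in 1 of the 9 leave-one-out fits that tested it and was lost with quantile normalization (limma adjusted p = 0.537). *AKR1B1*, which acts as a prostaglandin F synthase in cattle, was singled out after its values were seen. It had 234, 262, 200, 774 and 890 in WT and 906, 853, 1027, 306 and 919 in *SOX2* KO embryos, and its log2 fold change of 0.94 did not pass (limma adjusted p = 0.0878). The low embryos nc1, nc2, nc3 and ko4 of *AKR1B1* lay apart from the other 6. Among these low embryos, nc2 and ko4 had the lowest *PTGS2* of their groups. In WT, nc1 and nc3 had *PTGS2* values of 1402 and 1177, below nc4 (1852) and nc5 (2125).

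Of 6 genes of transport and breakdown, *PTGR1* alone was called, in the lower direction. It encodes a reductase that inactivates prostaglandin metabolites and leukotriene B4. *PTGR1* had 262, 742, 145, 465 and 436 in WT and 174, 148, 73.3, 103 and 128 in *SOX2* KO embryos. Only the WT embryo nc3 lay within the *SOX2* KO range. Its log2 fold change was -1.56 ± 0.32 (SE, with a limma adjusted p of 0.00409), with the call kept without each embryo in turn. It was lost with the *RN18S1* share as a covariate (-1.03, limma adjusted p = 0.195) and with the number of detected genes (-0.83, limma adjusted p = 0.545). *HPGD*, which encodes the enzyme of the first step of breakdown, had 0 to 7.95 among WT and 0 to 15.0 among *SOX2* KO embryos (limma adjusted p = 0.602).

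None of the 6 other receptor genes tested was called by limma, DESeq2 or edgeR (which tested 1 of them). By limma, 4 had an unadjusted p under 0.05 in the higher direction and 0 in the lower, beside 24% and 8.37% of all genes tested. Apart from *PTGFRN* they had few reads.

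Around *PPARD*, 1 of 11 partner genes was called higher and 0 lower, a share near the 8.93% of all genes. *RXRA*, which encodes an RXR dimer partner of the PPARs, had 9.16, 10.4, 3.98, 3.89 and 12.4 in WT and 31.2, 30.4, 26.7, 10.7 and 41.5 in *SOX2* KO embryos. Only ko4 lay within the WT range. Its log2 fold change was 1.71 ± 0.44 (SE, with a limma adjusted p of 0.0161).

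Of 24 genes of lipid handling that are known PPAR targets, 2 were called higher and 1 lower, with a median log2 fold change of 0.34. The number called higher is near the background of 8.93%, and 1.16% of all genes were called lower. *FABP5*, whose product carries fatty acids to PPARD, had 55.7, 48.9, 82.5, 181 and 291 in WT and 973, 577, 688, 1211 and 1023 in *SOX2* KO embryos. The lowest *SOX2* KO embryo was well above the highest WT embryo. For *FABP5* the log2 fold change was 3.04 ± 0.36 (SE, with a limma adjusted p of 2.92e-05). *SLC27A1*, a fatty acid transporter, rose from 59.2 ± 20.2 (SD, n = 5) to 133 ± 42.7 (SD, n = 5), with ko4 inside the WT range (log2 fold change 1.16, limma adjusted p = 0.00937). *PLIN2*, which coats lipid droplets, had 473, 400, 283, 383 and 436 in WT and 185, 226, 201, 105 and 164 in *SOX2* KO embryos. Every WT embryo was above every *SOX2* KO embryo, as for 2.76% of all genes tested. For *PLIN2* the log2 fold change was -1.19 ± 0.20 (SE, with a limma adjusted p of 0.000841). Of the 11 called genes of all lists, *FABP5* alone kept its call with both covariates, and *PLIN2* kept it with the *RN18S1* share but not with the number of detected genes.

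**Figure D5:**
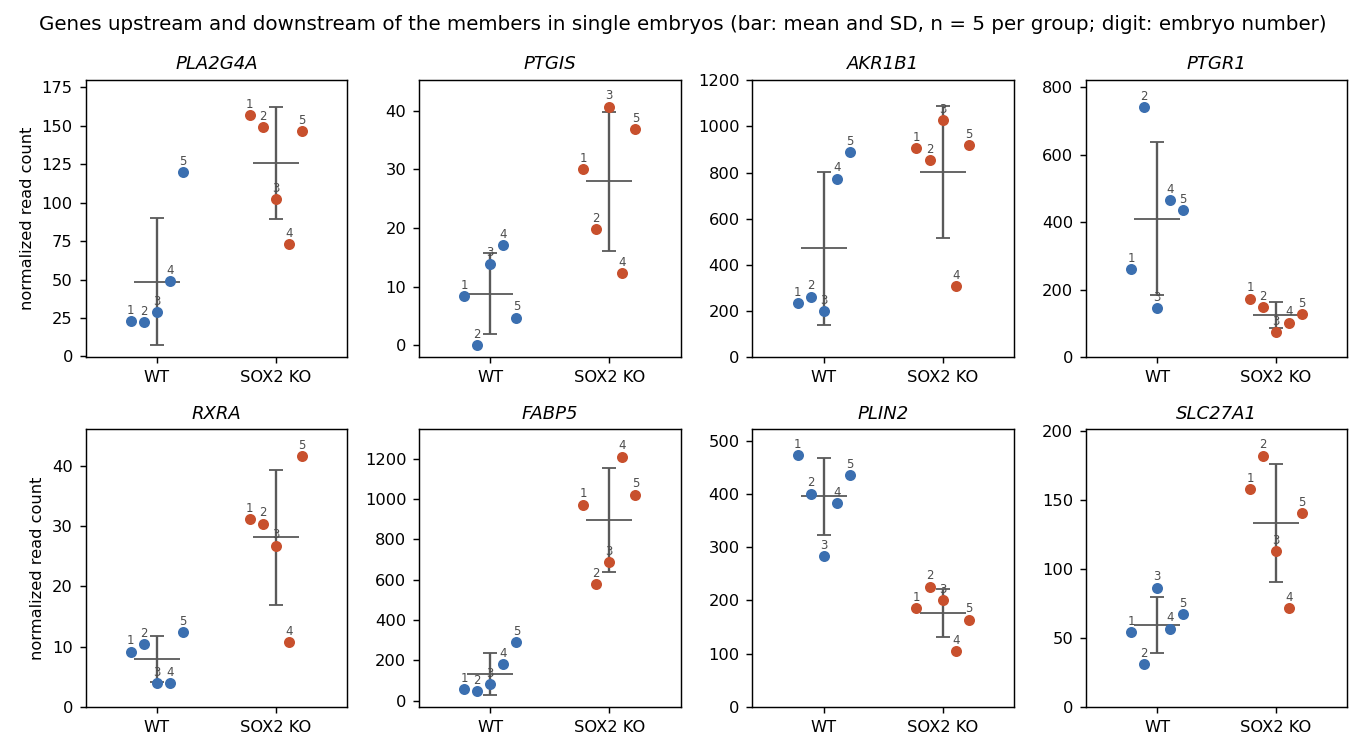
Normalized read counts (vertical axes, linear) of 8 genes upstream and downstream of the prostaglandin genes in each of 5 WT (blue) and 5 *SOX2* KO (red) embryos, with the mean and SD as grey bars. *FABP5* and *PLIN2* show no overlap between the groups, and ko4 lies apart from the rest of its group for *AKR1B1* and *RXRA*.

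In the leukotriene branch, which also starts from arachidonic acid, 1 of 8 genes was called higher and 0 lower, in a list whose median mean value was 3.25. The called gene, the receptor *CYSLTR1*, had 2 reads in WT and 19 in *SOX2* KO embryos (limma adjusted p = 0.0189). Cumulus cells, which surround the oocyte and express *PTGS2*, were removed from the zygotes by pipetting, and the zona was removed from the blastocysts, per the study's methods. Of 8 tested markers of cumulus and granulosa cells, none was called by limma, DESeq2 or edgeR (which tested 2 of them). By limma, 2 had an unadjusted p under 0.05 in the higher direction and 0 in the lower, beside 24% and 8.37% of all genes tested. The summed normalized read count of the 8 markers was 13.3 to 64.5 among WT and 29.6 to 77.9 among *SOX2* KO embryos. The log2 fold change was above 0 for 7 of the 8 markers, beside 62.9% of all genes tested, with a median of 0.51 against 0.25. *HAS2*, 1 of the 8 markers, was at 0 in 3 WT embryos and 1 *SOX2* KO embryo, and had at most 8.91 in any embryo. A single marker does not stand for the list, and whether such cells contributed to *PTGS2* was not tested. Of 5 sperm markers, 1 (*AKAP4*) was called higher, with at most 6.60, beside 8.93% of all genes and 14.1% of genes with a mean under 10. The summed level of the 5 sperm markers was 1.48 to 37.2 among WT and 4.11 to 18.6 among *SOX2* KO embryos.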

How the data were processed

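Single blastocysts were profiled by Smart-seq2, which captures polyadenylated RNA and uses no molecular identifiers. The authors trimmed paired-end 150 bp reads with Trimmomatic, aligned these against ARS-UCD1.2 using Hisat2, assigned them to genes with featureCounts, and deposited a normalized signal, in which the count of a gene is divided by that embryo's size factor from DESeq2. The annotation release, strand setting and treatment of reads shared between genes are not given in the sources used here. All 201120 values were integer multiples of a step that was constant within an embryo (within 0.02 reads), which gave the reads back. No gene of the table had fewer than 11 reads in all.

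The columns of the *SOX2* KO embryos are named ko1 to ko5 and their labels carry the numbers 1, 2, 3, 5 and 6, so each was taken as a member of its group only. limma 3.58.1 (lmFit, eBayes with trend) was run on log2(normalized read count + 1) for the 20056 genes whose mean was 1 or more, comparing 5 with 5 embryos and no covariate, with Benjamini-Hochberg adjustment over all of them. Fold changes on this scale understate the change of genes with few reads. DESeq2 1.42.0 and edgeR 4.0.16 (quasi-likelihood) on the recovered reads were alternatives (R 4.3.3). Single values were compared by exact permutation in Python 3.11.15 with scipy 1.17.1. The fits were tested on simulated data.

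The 10 symbols, the pathway lists and the marker lists were chosen with earlier results of these data known. Named genes are the 8 genes, called genes of these lists, and the 3 genes most like *PTGS2*; others are named as chosen after their values were seen, as are single markers given as checks. In the lists, 2 genes stand under both an old and a new symbol. The RefSeq gene table of ARS-UCD2.0, another assembly than that of the files, was used only for symbols and for which genes overlap or neighbour each other. Sequences and gene lengths were not used here, and levels of different genes were therefore not compared. The ratios of *PTGES* to other genes are not corrected for gene length, and only their differences between embryos and groups are read.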

Additional observations from a re-analysis of the deposited data

Results flagged for a closer look

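By Dixon's test on untransformed values, a single embryo was distant from its group in 4 of 44 cases with 5 embryos each. Chance alone gives this in about 1 of 20 groups if the values are normally distributed. The 44 cases share the same 10 embryos and include counts near 0, so their number cannot be judged against that rate. *PTGS1* had a normalized read count of 27.7 (24 reads) in ko5, against 4.93 to 11.1 in the other *SOX2* KO embryos. *PTGES3* had 1350 in ko4, against 788 to 923 in the other *SOX2* KO embryos. *PLA2G4A* had 120 in the WT embryo nc5, against 22.2 to 49.0 in the other WT embryos. *TBXAS1* had 0.763, which is 1 read, in the WT embryo nc1 and 0 in the other 4, where any single read would meet the test, so this case says nothing about the embryo.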

How the results depend on the processing

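*PTGES* was called higher in every one of the fits run. The number of the 8 genes called higher, 2 in the reported fit, was 4 with scaling by the median log ratio of well expressed genes, with sample quality weights and with no threshold on the fold change. It was 1 with a minimum mean of 10, which leaves *PTGER4* untested, and 1 with either covariate. Leaving out single embryos gave 2 to 4, and 0 genes were called lower in any fit. The 4 calls added *PTGES2* and *PPARD*, whose log2 fold changes lie next to the threshold.

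The 9 pathway genes called higher became 5 with quantile normalization, 5 with a minimum mean of 10, 5 with edgeR (38 of the 74 genes tested), 21 with quality weights and 1 with either covariate, and ranged from 4 (without ko5) to 21 (without ko4) with single embryos left out. The 2 called lower became 1 with the *RN18S1* covariate and 0 with the detected-genes covariate, and stayed at 2 without any single embryo.

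Over all genes, the 1792 called higher became 1002 with a pseudocount of 5, 631 with quantile normalization, 502 with a minimum mean of 10, 3229 with quality weights, 441 with edgeR (fewer genes tested), 137 with the *RN18S1* covariate and 58 with the detected-genes covariate, and 754 to 3050 without single embryos. The 232 called lower became 453, 83, 62 and 641 with quantile normalization, the *RN18S1* covariate, the detected-genes covariate and no threshold on the fold change, and 176 to 266 without single embryos. Apart from the fits that test fewer genes, the cause was not tested.

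The sign changed only for genes that did not pass. The log2 fold change of *PTGFR* was -0.013 with a pseudocount of 5, -0.11 with equal totals, -0.46 with quantile normalization, -0.23 with quality weights, -0.13 with DESeq2, -0.12 with edgeR, and -0.31 to 0.34 without single embryos. With the detected-genes covariate, *PTGS2* had -0.30 and *PTGES3* 0.13. The median log2 fold change of all genes was 0.25 in the reported fit, 0.14 with equal totals and -0.04 with quantile normalization. Genes with few reads, such as *PTGER4* and *PTGS1*, are limited by depth. No paired analysis was possible because the labels do not pair WT with *SOX2* KO embryos. In addition, ko1 to ko5 cannot be tied to the replicate numbers of their labels.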
